A study of Mus musculus with 6 samples.

Results

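Cells labelled as hair follicle-derived germline stem cells (HFGSC) were set against germline stem cells of the testis (GSC), with 2 bead arrays for each, out of 6 arrays in the series. The members were taken by sample title, without regard to any measured value. HFGSC arrays held total RNA labelled as dorsal skin hair follicle, from mice aged 4 months, and GSC arrays total RNA labelled as testis, from mice aged 3 months. The remaining 2 arrays held hair follicle cells (HF) from mice aged 2 months. They entered the fit for their share of the spread between arrays and are given last where a level is described. Every group, HF included, was of strain OG2, in which regulatory DNA of Pou5f1 drives expression of green fluorescent protein. Age and tissue of origin both differ between HFGSC and GSC and cannot be told apart. Whether the 2 arrays of a group stand for separate animals or cultures is not stated in the labels. The p-values therefore reflect only how far these arrays spread, and that spread may be technical.

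Spermatogonial stem cells are the germline cells of the postnatal testis that both renew themselves and enter spermatogenesis. In culture they depend on GDNF, a ligand of Sertoli cells that acts through the receptor pair Ret and Gfra1, and they express germline RNA-binding proteins such as Ddx4 and Dazl, the piRNA pathway that silences transposons, and the transcription factor Zbtb16. Hair follicles hold several stem cell populations, none of which belongs to the germline.

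Levels are log2 intensities after background correction and quantile normalization, differences are HFGSC minus GSC on that scale, and each gene is read by its brightest detected probe. A probe was detected where its deposited detection p-value was under 0.05. Detected probes numbered 19552 and 18907 on the HFGSC arrays, 19476 and 18772 on the GSC arrays, and 16593 and 16094 on the HF arrays, of 45281. Of 19057 genes named on the array, 10913 were detected on both arrays of at least 1 group and were tested. Genes passed where the adjusted p of limma, after Benjamini-Hochberg over all 10913, was under 0.05. A fold is written as at least where the dimmer group was not detected on either array, and is then a lower bound. An exact permutation test of 2 against 2 arrays cannot give a two-sided p under 0.333, so single genes have no test outside the model. HFGSC replicate 2 stood apart from the other HFGSC and GSC arrays, as described further on, so differences of leading genes without it are given beside the count. In bulk RNA, fewer cells of a type and less RNA per cell cannot be told apart.

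Both labels were first set against the genes that define the cells. Dazl, which marks germ cells from early in their development, read 14.39 and 12.92 on the HFGSC arrays, 14.89 and 13.40 on the GSC arrays and 4.99 and 5.13 on the HF arrays, where it was not detected. Ret, the signalling receptor for GDNF, read 14.69 and 14.30 on HFGSC arrays, against 14.03 and 14.42 on GSC arrays. Ddx4, a germ cell RNA helicase, averaged 8.38 ± 1.24 on HFGSC arrays and 9.16 ± 1.19 on GSC arrays (SD, n = 2 each). HFGSC and GSC levels overlapped for Dazl, Ret and Ddx4. Zbtb16 read 10.49 and 9.44 on HFGSC arrays, against 9.79 and 10.57 on GSC arrays. For Gfra1, the co-receptor that binds GDNF, the values were 7.79 and 7.74 on HFGSC arrays, against 7.22 and 7.05 on GSC arrays. The imprinted growth regulators Dlk1 and Igf2, both expressed from the paternal allele, differed by 0.49 ± 0.30 and -0.06 ± 0.36 (SE). Dlk1 read 15.53 and 15.89 in HFGSC, against 15.34 and 15.10 in GSC, and Igf2 read 14.16 and 13.78 in HFGSC, against 13.93 and 14.13 in GSC.

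Of 11 defining genes, which also included Thy1, Itga6, Kit and Pou5f1, 0 passed in limma, against 48 of all 10913 tested genes (0.44%). At that share 0 is the likely count for lists this short, so it does not show that levels match. Pou5f1, described further on, was the 1 defining gene with an unadjusted p under 0.05, against 803 of 10913. It was also the 1 defining gene that passed with the replicate number as a term, against 1.59% of all tested genes. Of the 15 tested genes of the GDNF receptor and response list, 0 passed in limma, with the replicate number as a term or without it. At an unadjusted p under 0.05, 2 were higher and 1 lower, against 384 and 419 of 10913. The median difference of the 15 was 0.56, against -0.01 over all tested genes. The lower gene, Gfra3, read 7.43 and 6.24 in HFGSC, against 7.65 and 8.73 in GSC (adjusted p 0.625 in limma). Egr2, a GDNF-responsive transcription factor, averaged 13.01 ± 0.02 in HFGSC and 11.86 ± 0.21 in GSC (SD, n = 2 each), a difference of 1.15 ± 0.39 (SE) with an adjusted p of 0.483 in limma. Of 20 tested genes of undifferentiated spermatogonia, 0 passed in either fit and 2 had an unadjusted p under 0.05, with a median difference of -0.14. Sall4, a zinc finger factor of these cells, read 13.67 and 12.83 in HFGSC, against 13.38 and 13.25 in GSC.

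Across all genes, 48 of 10913 passed, or 0.44%. Of these 48, 19 (0.174%) were higher in HFGSC and 29 (0.266%) were lower, and 803 genes had an unadjusted p under 0.05. In all 48, both HFGSC arrays lay on one side of both GSC arrays, and both differences between arrays of the same number were 2-fold or more. Over all tested genes, 14.7% had both HFGSC arrays above both GSC arrays and 17.7% had both below. The count rests on single arrays. Without HFGSC replicate 2, limma called 0 genes, with a lowest adjusted p of 0.0601 and 541 genes at an unadjusted p under 0.05. All 48 genes kept their sign without HFGSC replicate 2, which was largely bound to follow, since their HFGSC and GSC arrays did not overlap. Differences from HFGSC replicate 1 alone were close to those from both arrays, which the selection of genes with agreeing arrays also favours. Among higher genes they were 5.10 for Casp9, 5.58 for Mettl14, 4.20 for Hlx, 3.87 for Cops8 and 3.67 for Csrp1. Among lower genes they were -5.37 for Pkd2l1, -5.61 for Cpsf4l, -5.46 for Rbm45, -5.26 for Rab25, -4.86 for Trf, -4.50 for Dpep3, -3.47 for Magea6, -3.09 for Hoxb5 and -2.39 for Dppa3. Limma called 54 without HFGSC replicate 1, 17 without GSC replicate 1, 10 without GSC replicate 2, 22 without HF replicate 1 and 31 without HF replicate 2. With the replicate number as a term, 174 genes passed (1.59%), 86 higher (0.788%) and 88 lower (0.806%), and all 48 were among them.

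**Figure D1:**
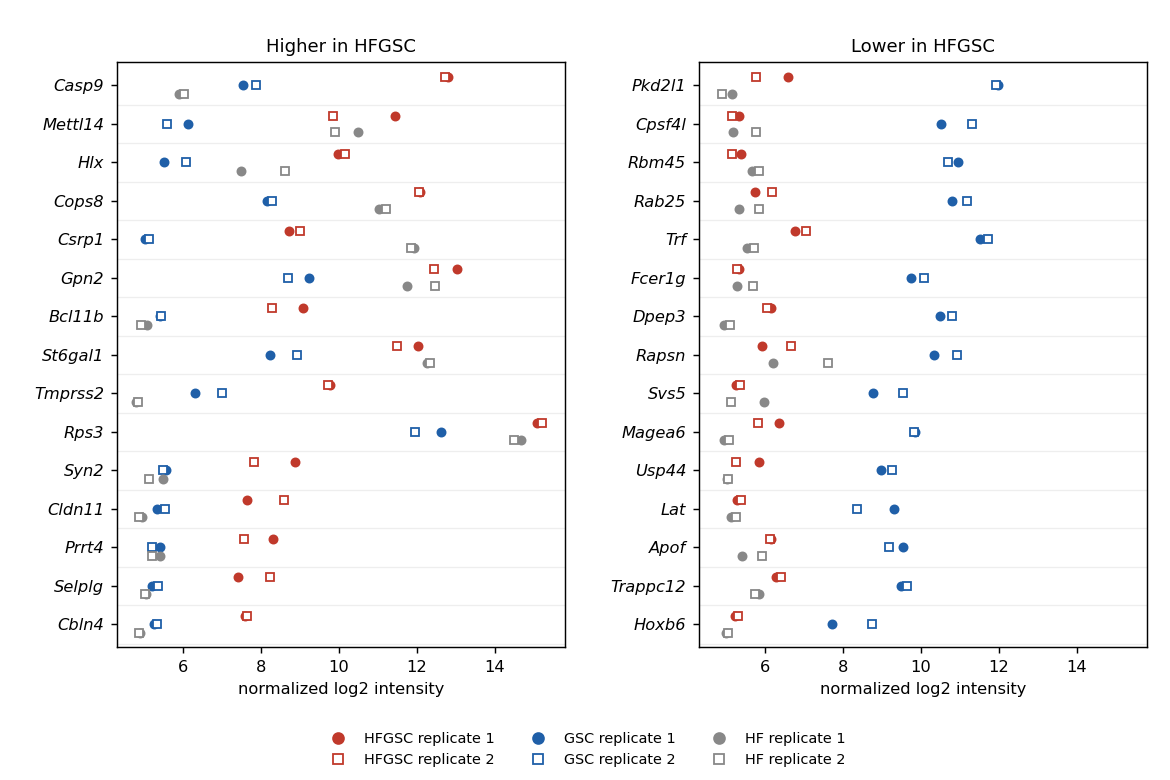
Normalized log2 intensity (x axis) of the 15 genes with the highest difference (left) and the 15 with the lowest (right) among named genes that passed, with circles for replicate 1 and squares for replicate 2. HFGSC points are red, GSC points blue and HF points grey, and the genes were chosen so that HFGSC and GSC points do not overlap. HF lies with HFGSC in most of the lower genes, which follows in part from the detection filter.

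The genes higher in HFGSC were of varied function. Casp9, the initiator caspase of the mitochondrial cell death pathway, read 12.80 and 12.72 on HFGSC arrays, against 7.53 and 7.86 on GSC arrays and 5.88 and 6.02 on HF arrays. Its difference was 5.06 ± 0.48 (SE), or 33.4-fold, with an adjusted p of 0.0119 in limma. Another detected Casp9 probe gave -1.74, so its probes went opposite ways. Mettl14, a subunit of the RNA m6A methyltransferase, read 11.44 and 9.85 in HFGSC, against 6.13 and 5.58 in GSC and 10.48 and 9.90 in HF. It was 27.7-fold higher in HFGSC than in GSC, where it was detected on 1 of 2 arrays (difference 4.79 ± 0.65 SE, adjusted p 0.0322 in limma). Both HFGSC values were near those of HF. Cops8, a subunit of the COP9 signalosome, read 12.09 and 12.06 in HFGSC, against 8.16 and 8.27 in GSC and 11.03 and 11.21 in HF. Cops8 was 14.5-fold higher (3.86 ± 0.38 SE, adjusted p 0.0124 in limma), again with GSC apart from the other cells.

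Transcription factors were among the higher genes. Hlx, a homeobox factor, read 9.98 and 10.16 in HFGSC, against 5.50 and 6.06 in GSC, where it was detected on 1 of 2 arrays. The difference was 19.6-fold, with an adjusted p of 0.0305 in limma. Bcl11b, a zinc finger factor best known from T cells and also active in skin, read 9.09 and 8.29 in HFGSC and was not detected in GSC at 5.41 and 5.42. It was at least 6.72-fold higher (adjusted p 0.0211 in limma), and it was not detected on the HF arrays either. HFGSC thus stood alone in Bcl11b, whereas HF read 7.49 and 8.61 for Hlx.

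Enzymes, surface proteins and cytoskeletal proteins made up much of the rest. St6gal1, which adds sialic acid to glycoproteins, read 12.04 and 11.50 in HFGSC, against 8.22 and 8.92 in GSC and 12.26 and 12.35 in HF, and was 9.17-fold higher in HFGSC than in GSC. Tmprss2, a membrane-bound serine protease, read 9.77 and 9.72 in HFGSC, against 6.31 and 6.99 in GSC, and was 8.55-fold higher. Csrp1, a LIM domain protein of the actin cytoskeleton, read 8.73 and 9.01 in HFGSC, was not detected in GSC at 5.01 and 5.11, and read 11.94 and 11.84 in HF. For Csrp1 the fold was at least 7.61. Cldn11, the claudin of Sertoli cell tight junctions and of myelin, read 7.63 and 8.58 in HFGSC, against 5.32 and 5.54 in GSC, where it was not detected, and was at least 4.49-fold higher. Adjusted p-values of these genes in limma were 0.0303 for St6gal1, 0.0325 for Tmprss2, 0.0303 for Csrp1 and 0.0376 for Cldn11. Selplg, a ligand of P-selectin on leukocytes, and Cbln4, a secreted cerebellin, were at least 3.70-fold and at least 3.21-fold higher in HFGSC, with GSC and HF not detected for either. Syn2, a synaptic vesicle protein, and Prrt4 were at least 5.28-fold and at least 3.99-fold higher.

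Rps3, a protein of the small ribosomal subunit, read 15.09 and 15.22 in HFGSC, against 12.63 and 11.95 in GSC, or 7.28-fold higher with an adjusted p of 0.0119 in limma. A second detected Rps3 probe differed by only 0.54. Of the 48 genes that passed, 9 had another detected probe. In 6 of them another probe moved 2-fold or more the same way, in Rps3 it moved the same way by less, and in Casp9 and Trappc12 it moved the other way. The other 39 rest on 1 detected probe each. Of the 19 higher genes, 11 were not detected on either GSC array, against 427 of all 10913 tested genes. On the HF arrays 12 were not detected on either, against 1858 of 10913. Genes detected in neither GSC nor HF were tested only through HFGSC.

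Of the 29 genes lower in HFGSC, 18 were not detected on either HFGSC array, against 334 of all 10913 tested genes. On the HF arrays 27 were not detected on either, against 1858 of 10913. Genes detected in neither HFGSC nor HF were tested only through GSC, so their brightness in GSC alone follows in part from the filter. Pkd2l1, a cation channel of the polycystin family, read 6.59 and 5.77 in HFGSC, against 11.99 and 11.92 in GSC and 5.15 and 4.90 in HF. It was detected on 1 of 2 HFGSC arrays and was 55.0-fold lower in HFGSC (-5.78 ± 0.50 SE, adjusted p 0.0119 in limma). The RNA-binding protein genes Rbm45 and Cpsf4l were not detected in HFGSC. Rbm45 read 5.37 and 5.14 in HFGSC, against 10.96 and 10.69 in GSC, and was at least 29.9-fold lower, while Cpsf4l read 5.32 and 5.16, against 10.53 and 11.32 in GSC, and was at least 32.0-fold lower. Trf, the iron carrier transferrin that Sertoli cells also secrete, read 6.77 and 7.04 in HFGSC, against 11.52 and 11.73 in GSC, or 26.3-fold lower (-4.72 ± 0.48 SE, adjusted p 0.0145 in limma). HF levels of Trf were 5.54 and 5.72, below detection.

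Rab25, a small GTPase of recycling endosomes in epithelial cells, read 5.73 and 6.18 in HFGSC, against 10.79 and 11.18 in GSC. It was detected on 1 of 2 HFGSC arrays and was 32.8-fold lower in HFGSC, with an adjusted p of 0.0119 in limma. Another Rab25 probe gave -4.08. Esrp1, a splicing factor of epithelial cells, read 11.88 and 11.17 in HFGSC, against 13.92 and 13.56 in GSC (adjusted p 0.126 in limma), and passed only with the replicate number as a term. The keratins Krt17 and Krt23 passed in that fit too. Krt17 was not detected in HFGSC at 5.50 and 5.18, against 7.44 and 8.68 in GSC, with an adjusted p of 0.0612 in limma. Krt23 read 6.64 and 6.68 in HFGSC, against 8.58 and 9.34 in GSC, with an adjusted p of 0.104 in limma. No other of the 8 tested keratins passed with the number as a term, and 0 of 8 passed without it, against 2 at an unadjusted p under 0.05. Over all 10913 tested genes, 1.59% passed with the term and 0.44% without it, and 803 had an unadjusted p under 0.05. HF arrays did not detect either keratin, at 4.94 and 4.97 for Krt17 and 5.08 and 5.34 for Krt23. The median difference of the 8 keratins was -0.02.

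Some lower genes are best known from leukocytes, while Selplg and Bcl11b, also known from leukocytes, were among the higher genes. Fcer1g, the signalling chain shared by Fc receptors, was not detected in HFGSC at 5.33 and 5.29, against 9.74 and 10.09 in GSC, a level at least 15.9-fold lower (adjusted p 0.0119 in limma). Lat, the adaptor of the T cell receptor, was not detected at 5.27 and 5.37 in HFGSC, against 9.30 and 8.35 in GSC, a level at least 7.46-fold lower (adjusted p 0.0215 in limma). Both genes were bright only in GSC. Among leukocyte markers, a list that does not hold Lat, 6 of 19 on the array were tested. Of these markers 1, Fcer1g, passed, against 0.44% of all tested genes. Their summed level, on the linear scale over all 19, was 1884 and 2720 in HFGSC, 3598 and 4933 in GSC, and 2446 and 3115 in HF. On single arrays, 5 and 5 of the 19 were detected in HFGSC, against 6 and 10 in GSC. The part of leukocyte RNA in these results was not tested. Cd3e, another T cell receptor component, was not detected in HFGSC at 5.69 and 5.68, against 6.94 and 7.78 in GSC, with an adjusted p of 0.134 in limma.

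Of the Sertoli cell list, 7 of 14 genes on the array were tested. Of these, 1 was higher (Cldn11) and 1 lower (Trf) in HFGSC, against 0.174% and 0.266% of all tested genes. The defining supporting cell factor Sox9, which also marks the follicle bulge, read 12.64 and 13.59 in HFGSC, against 11.42 and 11.71 in GSC and 11.41 and 11.61 in HF. Sox9 was 2.92-fold higher in HFGSC with an adjusted p of 0.215 in limma, and it passed with the replicate number as a term. Summed Sertoli marker levels were 8071 and 16610 in HFGSC, against 7724 and 9184 in GSC. The 2 tested Leydig cell genes, Cyp11a1 and Insl3, did not pass. Summed levels over that list's 9 genes were 308.2 and 466 in HFGSC, 612.2 and 667 in GSC, and 348 and 336.4 in HF. On single arrays 1 and 1 of the 9 were detected in HFGSC, 2 and 2 in GSC, and 0 and 0 in HF. These sums thus hold much signal below detection. The part of testis somatic cells in these differences was not tested.

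Among germ cell genes, Dpep3 stood apart. It encodes a membrane dipeptidase of the testis and read 6.15 and 6.04 in HFGSC, against 10.49 and 10.80 in GSC, with HF not detected at 4.95 and 5.11. Its level was 23.5-fold lower in HFGSC (-4.55 ± 0.42 SE, adjusted p 0.0119 in limma). It was the only 1 of 33 tested genes of the germ cell core list to pass, while 4 had an unadjusted p under 0.05, all lower, and the list's median was -0.67. Over all 10913 tested genes, 0.44% passed and 419 were lower at an unadjusted p under 0.05. Piwil2, a piRNA-binding protein, read 13.68 and 12.49 in HFGSC, against 13.98 and 13.19 in GSC. Tex19.1, a germ cell protein that restrains transposons, read 14.53 and 14.03 in HFGSC, against 15.01 and 15.08 in GSC, with an adjusted p of 0.718. The summed level of the list was 227200 and 119100 in HFGSC, against 295500 and 215900 in GSC.

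Of the 11 tested genes of the primordial germ cell list, 1, Dppa3, passed and was lower in HFGSC, and 2 were lower and 2 higher at an unadjusted p under 0.05. Over all 10913 tested genes, 0.266% passed as lower, and 419 were lower and 384 higher at an unadjusted p under 0.05. Dppa3, also called Stella, marks primordial germ cells and protects methylation in the early embryo. It read 6.00 and 5.47 in HFGSC, where 1 of 2 arrays detected it, against 8.15 and 8.61 in GSC, or 6.28-fold lower (-2.65 ± 0.36 SE, adjusted p 0.0322 in limma). Pou5f1, whose sequences drive the OG2 reporter, read 8.44 and 8.13 in HFGSC, against 10.49 and 11.11 in GSC and 6.61 and 6.81 in HF. The difference of -2.52 ± 0.51 (SE), or 5.73-fold lower, had an adjusted p of 0.126 in limma, and Pou5f1 passed with the replicate number as a term. A second Pou5f1 probe read 8.45 and 8.01 in HFGSC, against 10.41 and 10.41 in GSC. In HF that probe was not detected, at 5.01 and 5.38. Neither Dppa3 nor Pou5f1 overlapped between HFGSC and GSC. Both HFGSC arrays lay below both GSC arrays in 17.7% of all tested genes. The higher pair of that list were the interferon-inducible membrane proteins Ifitm3 and Ifitm1. Ifitm3 read 13.39 and 15.61 in HFGSC, against 12.64 and 12.38 in GSC (adjusted p 0.404 in limma), and Ifitm1 read 12.46 and 14.60 in HFGSC, against 11.45 and 11.86 in GSC (adjusted p 0.464 in limma). Both HFGSC arrays lay above both GSC arrays in each, as in 14.7% of all tested genes, with replicate 2 the higher. Of the 16 tested pluripotency genes, 0 passed, 1 was lower and 2 higher at an unadjusted p under 0.05, and 1, Pou5f1, passed with the number as a term. The 2 higher ones were Tbx3 and Klf2. Tbx3, a T-box factor, read 9.34 and 9.35 in HFGSC, against 7.17 and 8.09 in GSC, with an adjusted p of 0.40 in limma. Klf2, a Krüppel-like factor of naive pluripotency, read 12.35 and 11.73 in HFGSC, against 10.39 and 10.94 in GSC, with an adjusted p of 0.436.

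Magea6, a member of the X-linked melanoma antigen family that the germline expresses, read 6.36 and 5.81 in HFGSC, against 9.84 and 9.83 in GSC. It was detected on 1 of 2 HFGSC arrays and was 13.5-fold lower in HFGSC (-3.75 ± 0.40 SE, adjusted p 0.0194 in limma). Its neighbours on chromosome X were then read, chosen after their values were seen from genes that passed with the replicate number as a term. Magea8 read 9.53 and 8.66 in HFGSC, against 12.07 and 12.02 in GSC. Magea2 read 10.90 and 9.88 in HFGSC, against 13.20 and 13.05 in GSC. Every HFGSC value of these family members lay below every GSC value, as in 17.7% of all tested genes. Magea5 was 5.84-fold lower at 10.20 and 9.39 in HFGSC, against 12.50 and 12.18 in GSC, and Magea3 was 4.57-fold lower at 6.32 and 6.20, against 8.47 and 8.43 in GSC. Adjusted p-values in limma were 0.0913 for Magea8, 0.105 for Magea2, 0.126 for Magea5 and 0.0634 for Magea3, and each passed with the replicate number as a term. Magea10, another X-linked member, read 7.82 and 6.84 in HFGSC, against 9.88 and 9.10 in GSC, and also passed only in that fit. Members of the family are near-identical in places, so a probe may read more than 1 of them, and the genes are not independent counts.

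The 250 bases upstream of the start are shown for Magea6, the member that passed, and for Magea8 and Magea2, the pair among those neighbours with the longest stretch in common, from RefSeq on assembly GRCm38.p6. All 3 lie on the minus strand and run 5′ to 3′, with each CpG, the dinucleotide that DNA methylation targets in mammals, in capitals. Magea6 lies at chrX:154926116-154926365, Magea8 at chrX:154995851-154996100 and Magea2 at chrX:155033293-155033542.
Magea6: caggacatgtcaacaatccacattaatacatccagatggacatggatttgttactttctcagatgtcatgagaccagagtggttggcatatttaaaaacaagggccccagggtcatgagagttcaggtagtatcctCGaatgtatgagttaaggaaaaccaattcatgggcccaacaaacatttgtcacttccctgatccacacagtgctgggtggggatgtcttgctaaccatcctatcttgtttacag
Magea8: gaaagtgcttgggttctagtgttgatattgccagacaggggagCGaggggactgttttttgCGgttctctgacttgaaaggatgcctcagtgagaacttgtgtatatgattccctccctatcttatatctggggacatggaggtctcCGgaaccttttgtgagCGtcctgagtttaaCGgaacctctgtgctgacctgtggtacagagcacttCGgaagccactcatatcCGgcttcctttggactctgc
Magea2: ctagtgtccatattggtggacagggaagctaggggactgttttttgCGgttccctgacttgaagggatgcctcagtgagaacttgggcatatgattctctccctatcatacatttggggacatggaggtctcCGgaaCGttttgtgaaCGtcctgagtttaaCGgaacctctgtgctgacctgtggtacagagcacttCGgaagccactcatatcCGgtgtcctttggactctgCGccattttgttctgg

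Magea8 and Magea2 shared an unbroken run of 70 bases, whereas no other pair of the 5 neighbours shared more than 9. CpG numbered 1 upstream of Magea6, 7 upstream of Magea8 and 8 upstream of Magea2, and 0 upstream of Magea3 and Magea5. Of 27025 promoters in the table, 91.7% held as many CpG as Magea6 or more, 46.5% as many as Magea8 or more and 43.4% as many as Magea2 or more. The letters CCGGAA, the core of ETS factor motifs, were searched on both strands, and they contain a CpG themselves. They occurred 1 time each upstream of Magea8 and Magea2 and 0 times in the other 3 windows, against 12.2% of all promoters with a match.

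Hox genes encode homeobox factors that set position along the body axis and lie in clusters. Hoxb6 was not detected in HFGSC at 5.22 and 5.31, against 7.72 and 8.75 in GSC, a level at least 4.97-fold lower (adjusted p 0.0305 in limma). Hoxb5 read 6.01 and 6.29 in HFGSC, against 8.66 and 9.55 in GSC, or 7.76-fold lower (adjusted p 0.0467 in limma). Hoxb7, next to Hoxb6 on chromosome 11, read 8.05 and 7.77 in HFGSC, against 10.64 and 11.28 in GSC, or 8.27-fold lower. Its adjusted p was 0.0711 in limma, and it passed with the replicate number as a term. Hoxb2 and Hoxb4 differed by -1.25 ± 0.54 and -0.86 ± 0.45 (SE) and passed in neither fit. Of the 16 tested Hox genes, 2 passed, both lower in HFGSC, against 0.266% of all tested genes, while the list's median difference was 0.44.

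Outside the Hoxb cluster, several Hox genes were high on 1 HFGSC array, while Hoxd8 was higher on both. Hoxd8 read 6.69 and 6.41 in HFGSC and was not detected in GSC at 5.32 and 5.04, with a difference of 1.37 ± 0.26 (SE) and an adjusted p of 0.106 in limma. It passed in neither fit and was the 1 Hox gene higher in HFGSC at an unadjusted p under 0.05, against 3 lower. Over all 10913 tested genes these counts were 384 higher and 419 lower. Hoxa5 read 7.92 and 11.07 in HFGSC, against 7.98 and 9.02 in GSC. For Hoxc6 the levels were 8.28 and 11.17 in HFGSC, against 7.93 and 8.73 in GSC. HFGSC replicate 2 was the highest array in both genes, and replicate 1 lay among the GSC arrays for Hoxc6 and below them for Hoxa5. Hoxa5, Hoxc6, Hoxa2 and Hoxa7 passed in neither fit, with adjusted p-values between 0.756 and 0.889 in limma.

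Neighbours of Casp9 on chromosome 4 were also read after their values were seen. They were taken only from genes that passed with the replicate number as a term, within 200 kb of the next such gene. Other genes of the region are not given. Plekhm2, a lysosome trafficking adaptor, read 11.45 and 11.30 in HFGSC, against 8.23 and 9.31 in GSC and 11.49 and 12.09 in HF. Fblim1, a filamin-binding protein of focal adhesions, read 10.15 and 10.95 in HFGSC, against 7.81 and 9.02 in GSC and 12.65 and 12.86 in HF. Tmem82 read 6.79 and 6.52 in HFGSC and was not detected in GSC at 5.09 and 5.06. All HFGSC values exceeded all GSC values in these genes, as in 14.7% of all tested genes. Differences were 2.60 ± 0.48, 2.13 ± 0.53 and 1.58 ± 0.24 (SE) for Plekhm2, Fblim1 and Tmem82, with adjusted p-values of 0.105, 0.223 and 0.0536 in limma. All of them passed with the replicate number as a term, as their choice required.

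**Figure D2:**
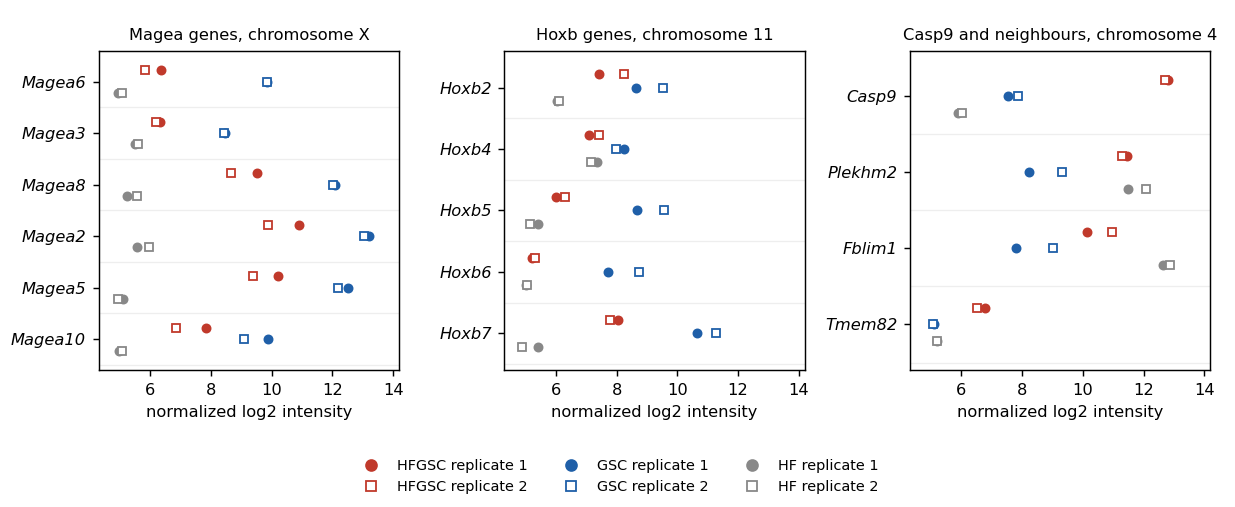
Normalized log2 intensity (x axis) of Magea genes, Hoxb genes and Casp9 with its neighbours, with circles for replicate 1, squares for replicate 2, red for HFGSC, blue for GSC and grey for HF. HFGSC points lie left of GSC points in all Magea and Hoxb genes shown, and right of them for Casp9 and the neighbours shown. Neighbours of Magea6 and Casp9 were chosen after their values were seen.

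Hair follicle cells were closer to one or the other germline cell type in different genes. Of the 29 genes lower in HFGSC, the HF mean was nearer HFGSC in 28. However, 27 of the 29 were not detected on either HF array and 18 on neither HFGSC array. A gene below detection in both HF and HFGSC could only lie nearer HFGSC, so the filter largely fixed this count. Col18a1, a basement membrane collagen named for being the exception, read 9.94 and 9.82 in HFGSC, against 11.82 and 12.08 in GSC and 14.48 and 14.54 in HF. Of the 19 higher genes, HF was nearer HFGSC in 7, and these included Mettl14, Cops8, St6gal1 and Csrp1. In the other 12 it was nearer GSC. Here too, 12 of the 19 were not detected on either HF array and 11 on neither GSC array, which favours a HF mean near GSC. Over all 10913 tested genes HF was nearer HFGSC in 6081 and nearer GSC in 4746.

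The arrays did not lie at even distances. By root mean square log2 difference over the tested genes, HFGSC replicate 1 was 0.635 from GSC replicate 1, whereas the HFGSC arrays were 0.986 from each other and the GSC arrays 0.861. HFGSC replicate 2 was 0.954 from GSC replicate 2 and 1.201 from GSC replicate 1. HFGSC replicate 1 thus lay nearer both GSC arrays, the other at 0.925, than its own replicate.

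**Figure D3:**
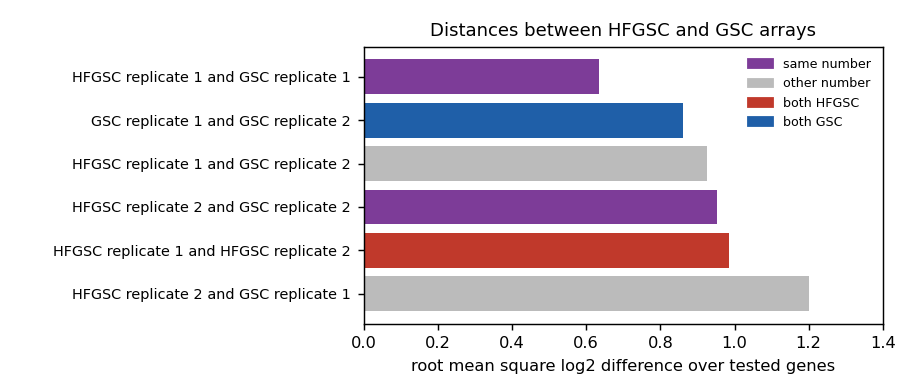
Root mean square log2 difference over 10913 tested genes (x axis) for each pair of HFGSC and GSC arrays. The shortest bar, 0.635, joins HFGSC replicate 1 to GSC replicate 1, and the longest, 1.201, joins HFGSC replicate 2 to GSC replicate 1.

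Taken singly, replicate 1 arrays differed 2-fold or more in 541 genes higher (4.96%) and 386 lower (3.54%) in HFGSC. Replicate 2 arrays differed so in 1513 higher (13.9%) and 1078 lower (9.88%). In both numbers at once, 200 genes were higher (1.83%) and 260 lower (2.38%), against 106 higher and 115 lower on the authors' normalized values. On the first scale 7 (0.0641%) were 2-fold up in replicate 1 and down in replicate 2, and 9 (0.0825%) the reverse. Across genes the 2 differences correlated at 0.48, a description over 10913 genes normalized together and not independent of one another.

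**Figure D4:**
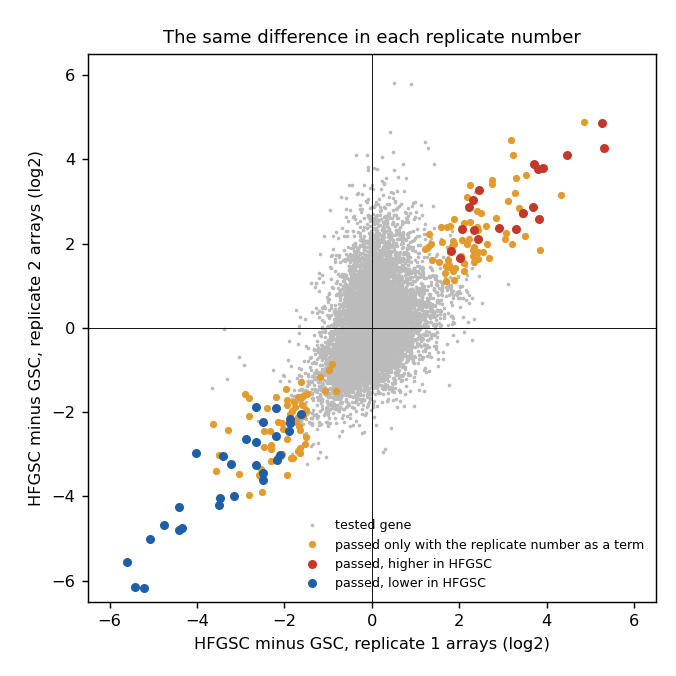
Difference HFGSC minus GSC on the log2 scale between replicate 1 arrays (x axis) and between replicate 2 arrays (y axis), 1 point per tested gene. Genes that passed, red where higher and blue where lower in HFGSC, lie along the diagonal in both arms, and the cloud of other genes is taller than wide.

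HFGSC replicate 2 was the array that stood apart. Set against the mean of the other three HFGSC and GSC arrays, it was 2-fold or more above in 1407 genes and below in 1315, against 682 and 454 for HFGSC replicate 1, 1060 and 808 for GSC replicate 1, and 524 and 938 for GSC replicate 2. Genes of fibroblasts and matrix were 1.80 above by their median, with 20 of 25 at 2-fold or more. Bgn, a small proteoglycan of the matrix, read 13.33 and 15.24 in HFGSC, against 13.09 and 13.07 in GSC. Timp1, an inhibitor of matrix proteases, read 11.30 and 14.13 in HFGSC, against 11.19 and 11.94 in GSC. In both genes 1 HFGSC array was high and the other near GSC. The summed fibroblast list stood at 84330 and 236800 in HFGSC, against 75200 and 77090 in GSC and 90300 and 98740 in HF. Of its 25 tested genes 0 passed in limma in either fit, and 1 had an unadjusted p under 0.05, while its median difference was 0.11 between replicate 1 arrays and 1.68 between replicate 2 arrays.

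Most interferon response and antigen presentation genes were also high on that array. The median of 20 tested genes was 1.44 above the other three in HFGSC replicate 2, with 13 of 20 at 2-fold or more. Of all 10913 tested genes, 1407 were 2-fold or more above on that array. H2-K1, a class I histocompatibility antigen, read 9.32 and 12.93 in HFGSC, against 8.90 and 10.31 in GSC. Usp18, which removes the ubiquitin-like modifier Isg15, read 6.55 and 10.30 in HFGSC, against 6.58 and 6.98 in GSC and 6.34 and 9.73 in HF. HFGSC replicate 1 sat near GSC in both. Of the 20 genes 0 passed in limma in either fit. At an unadjusted p under 0.05, 3 were higher and 1 lower, against 384 and 419 of all 10913 tested genes. The lower gene, Rsad2, an antiviral enzyme with the lowest adjusted p of the list (0.317 in limma), read 7.86 and 7.75 in HFGSC, against 10.46 and 9.98 in GSC. Oasl2, of the oligoadenylate synthetase family, read 12.19 and 11.13 in HFGSC, against 10.41 and 8.93 in GSC. Both HFGSC arrays thus lay below GSC in Rsad2 and above it in Oasl2, where replicate 1 was the higher. Immediate early genes were 1.14 above in HFGSC replicate 2, with 11 of 18 at 2-fold or more, against the same 1407 of 10913. Fos, a subunit of the AP-1 factor, read 12.28 and 13.99 in HFGSC, against 11.74 and 10.98 in GSC (adjusted p 0.537 in limma). Zfp36, which speeds decay of inflammatory mRNAs, read 13.88 and 14.48 in HFGSC, against 13.12 and 13.22 in GSC (adjusted p 0.235 in limma). Fos and Zfp36 were higher on both HFGSC arrays than on either GSC array, as were 14.7% of all tested genes, though the difference did not pass. Of the 18 immediate early genes 0 passed in limma in either fit. At an unadjusted p under 0.05, 6 were higher in HFGSC and 0 lower, against 384 and 419 of all 10913 tested genes.

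Germ cell core genes lay on the other side in that array, with a median of -1.22 against the other three. Of the 33 genes, 19 were 2-fold or more below, against 1315 of all 10913 tested genes. The same median was 0.58 for HFGSC replicate 1, 0.94 for GSC replicate 1 and -0.29 for GSC replicate 2. Taf7l, a germ cell partner of the general transcription machinery, read 14.23 and 12.35 in HFGSC, against 14.66 and 13.45 in GSC. Replicate 2 was the lower array in both groups for Taf7l. DNA methylation and chromatin genes had a median of -0.84 in HFGSC replicate 2. Of their 16 tested members 0 passed in limma in either fit, with 3 at an unadjusted p under 0.05, and Dnmt3l, the cofactor of new methylation in germ cells, read 8.38 and 8.57 in HFGSC, against 9.26 and 10.36 in GSC.

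**Figure D5:**
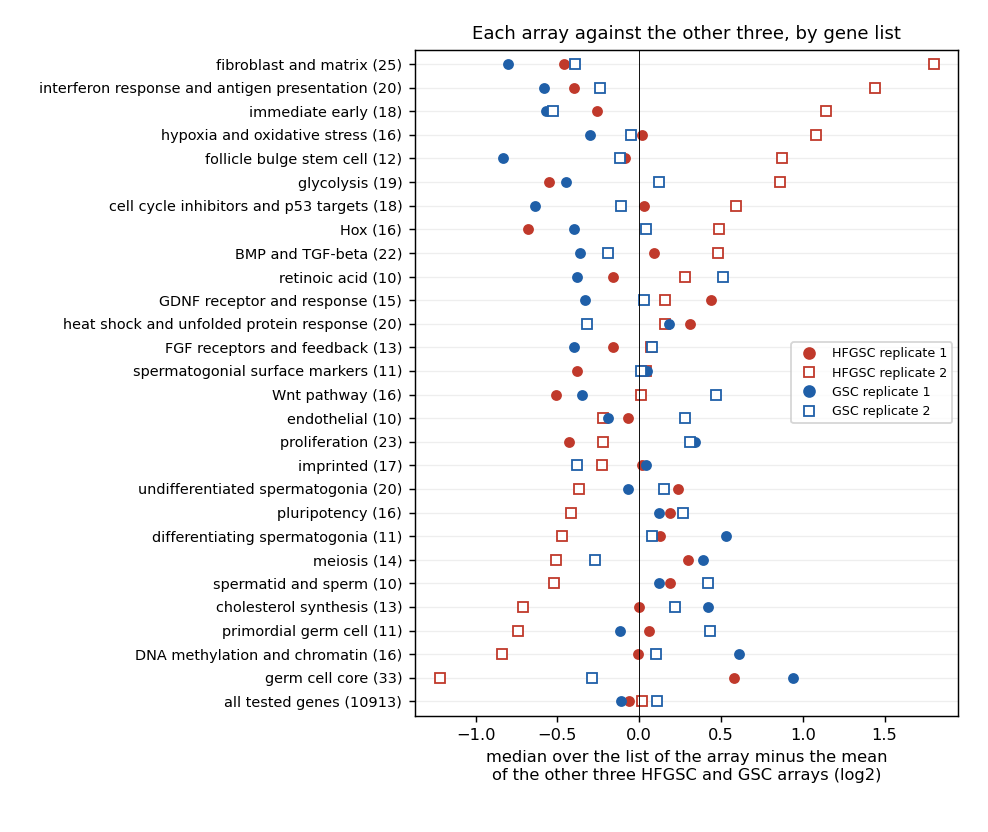
Median over each list with at least 10 tested genes (number in brackets) of an array's level minus the mean of the other three HFGSC and GSC arrays, on the log2 scale (x axis). HFGSC replicate 2 (open red squares) lies furthest right for fibroblast and matrix genes at 1.80 and furthest left for germ cell core genes at -1.22, while all 4 arrays lie between -0.11 and 0.11 over all tested genes.

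The genes with the widest gap between the numbers showed the same array. Serpina3n, a secreted protease inhibitor, read 6.21 and 11.61 in HFGSC, against 5.31 and 5.81 in GSC, where it was not detected. Tmem176b read 9.55 and 13.74 in HFGSC, against 9.05 and 7.92 in GSC. Adm, the vasoactive peptide adrenomedullin, read 6.77 and 10.61 in HFGSC, against 6.36 and 5.98 in GSC. Among the HFGSC and GSC arrays each was highest in HFGSC replicate 2. On the low side, Trim71, a regulator of stem cell mRNAs, read 11.48 and 8.82 in HFGSC, against 10.52 and 10.68 in GSC, and Cartpt, a neuropeptide precursor, read 9.30 and 7.04 in HFGSC, against 8.99 and 9.91 in GSC.

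The 1465 genes (13.4%) 2-fold or more higher in HFGSC replicate 2 than in replicate 1 were compared with levels on the 4 GSC and HF arrays, which that selection did not use. Of these genes, 56.9% were 2-fold or more higher in HF than in GSC, against 20.1% of all tested genes. Of the 1402 genes (12.8%) lower in HFGSC replicate 2, 38.7% were 2-fold or more lower in HF than in GSC, against 25.4% of all tested genes. The part of hair follicle or fibroblast RNA in HFGSC replicate 2 was not tested.

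Many genes differed between the replicate numbers in the same direction in HFGSC and GSC. Of 2867 genes 2-fold apart between the HFGSC arrays and 2231 between the GSC arrays, 1095 were so in the same direction in both. Of all 10913 tested genes, 13.4% were 2-fold or more higher and 12.8% lower in HFGSC replicate 2 than in replicate 1. In GSC these shares were 7.22% and 13.2%. Eif2s3y, a Y-linked translation factor gene, read 10.77 and 7.80 in HFGSC, against 11.04 and 7.80 in GSC. Tex11, an X-linked meiosis gene, read 11.34 and 8.04 in HFGSC, against 12.11 and 8.61 in GSC. In Eif2s3y and Tex11 both cell types read alike within a number, while the numbers differed. This did not hold over all tested genes, where HFGSC replicate 2 was 0.954 from GSC replicate 2 and the GSC arrays were 0.861 apart. Labels tie the numbers to no animal, batch or day.

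The remaining lists held few or no genes that passed. Over all 39 lists, 7 of 479 distinct tested members passed, in 5 lists, and 15 passed with the replicate number as a term, against 0.44% and 1.59% of all tested genes. Proliferation genes had a median difference of -0.63, with 0 of 23 past the threshold in either fit and 3 at an unadjusted p under 0.05. Cdc20, an activator of the anaphase-promoting complex, read 13.08 and 12.71 in HFGSC, against 13.65 and 14.17 in GSC (adjusted p 0.28 in limma). Wnt3, a Wnt ligand of early development, read 6.24 and 5.98 in HFGSC, against 7.88 and 8.83 in GSC (adjusted p 0.11 in limma), and was the only 1 of 16 Wnt pathway genes to pass with the number as a term. Chac1, an unfolded protein response gene that degrades glutathione, read 11.23 and 11.94 in HFGSC, against 9.06 and 9.95 in GSC, and also passed only with the number as a term (adjusted p 0.23 in limma without it). Rasgrf1, an imprinted guanine nucleotide exchange factor, read 8.05 and 8.13 in HFGSC, against 9.87 and 9.81 in GSC, and passed in neither fit (adjusted p 0.245 in limma). None of the HFGSC and GSC values of Cdc20, Wnt3, Chac1 and Rasgrf1 overlapped. Of all tested genes, 14.7% did not overlap with HFGSC above and 17.7% with HFGSC below.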

How the data were processed

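Per the labels, biotinylated cRNA made from total RNA was measured on 6 bead arrays of Illumina. Intensity values were deposited on a linear scale without normalization. A detection p-value of each probe was deposited in the column beside its intensity, per the file headers. The authors' series matrix gives log2 values, quantile normalized as far as the values show, with a median of 7.046 in every column, uncentred, each within 0.161 of the quantile-normalized log2 intensities. Per the submitters' processing notes, GenomeStudio 2011.1 and R 3.0.2 were used.

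From the intensities, neqc of limma 3.58.1 in R 4.3.3 gave levels (background from detection p-values, offset 16, quantile normalization, log2). Probes detected at p under 0.05 on both arrays of a group were kept, 19715 of 45281. The platform annotation gave 34885 probes 1 symbol, 18 several and 10378 none, and 34807 matched RefSeq of GRCm38.p6 by Entrez identifier. The brightest kept probe stood for its gene. Groups came from sample titles, and 0 value columns were unused. Linear models on all 6 arrays had 3 residual degrees of freedom and a mean-variance trend. Lower-bound folds set the brighter mean against the mean, per array, of the lowest detected signal or the probe's own, whichever was higher. Summed list levels add linear values over all members on the array. The fit was tested on simulated data. The number of arrays limits the precision.

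The replicate numbers were checked for pairing. Replicate 2 minus replicate 1 had a correlation, across genes, of 0.58 between HFGSC and GSC, 0.436 between HFGSC and HF and 0.757 between GSC and HF. The numbers were therefore taken to pair the arrays, from the data alone, and results with the number as a term are given where they change a call. The members, the lists and the tests were chosen with earlier results of these data known. Named genes were the 15 highest and 15 lowest differences that passed without overlap, up to 4 per list by adjusted p, the 8 widest gaps between numbers in each direction and 11 defining germ cell genes. Others, the Magea and Hoxb members, the neighbours of Casp9, the exception Col18a1 and further list members, were chosen after their values were seen. Alternatives tried were other arrays, filters, normalizations, probe rules and the authors' values.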

Additional observations from a re-analysis of the deposited data

How the results depend on the processing

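Of the 48 genes that passed, all kept their sign under every alternative in which they were tested, except with the median of a gene's probes. There Casp9 moved to -0.30 (adjusted p 0.947) and Trappc12 to 0.45 (adjusted p 0.851) in limma, since another probe of each went the other way. Leaving out an array could hardly change a sign, since HFGSC and GSC arrays did not overlap in these genes. With the replicate block over all 6 arrays 174 genes passed, 86 higher and 88 lower, with 15 list members. With the replicate block over the 4 HFGSC and GSC arrays 288 passed, 142 higher and 146 lower, with 35 list members. Those 4 arrays without a block gave 5, 2 higher and 3 lower, with 0 list members among 610 genes at an unadjusted p under 0.05. Detection on all 4 arrays gave 8, 4 higher and 4 lower, with 2 list members, and tested 13 of the 48. Without the mean-variance trend 13 passed, 3 higher and 10 lower, with 3 list members. The authors' values gave 43 genes with 4 list members, and 221 genes (106 higher, 115 lower) 2-fold apart in both numbers with 3 in opposite directions. No detection filter gave 36 with 4 list members. The cause of these moves was not tested beyond the fewer arrays or genes that some settings use. Leaving out 1 array at a time gave 0 to 54 genes, 0 to 41 higher and 0 to 21 lower, and 0 to 13 list members. The 0 belongs to HFGSC replicate 2, with 541 genes at an unadjusted p under 0.05, and 41 higher with 13 lower to HFGSC replicate 1. Median scaling gave 63 genes with a median of -0.07 over all tested genes. Many genes near or below the detection limit have only a bound on their difference.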

Other observations

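With the replicate number as a term, further genes outside the lists passed. Ttc27 read 11.91 and 10.48 in HFGSC, against 7.05 and 5.60 in GSC, where it was detected on 1 of 2 arrays. The difference was 29.3-fold, with an adjusted p of 0.0576 in limma without the term. Psmb5, a catalytic subunit of the proteasome, read 11.93 and 11.62 in HFGSC, against 10.05 and 10.48 in GSC. Fmr1, an RNA-binding protein that represses translation, read 7.62 and 7.88 in HFGSC, against 9.40 and 9.65 in GSC. HF levels of Fmr1, 9.59 and 9.73, lay with GSC. All 3 genes were chosen after their values were seen, and none overlapped between HFGSC and GSC. Of all tested genes, 14.7% did not overlap with HFGSC above and 17.7% with HFGSC below.

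Upstream windows of 250 bases were in the RefSeq table for 16 of the 19 genes higher in HFGSC and for 19 of the 29 lower. Their median number of CpG was 11 in the higher genes and 6 in the lower genes, against 16 over 8842 tested genes with a window. This is a description of genes chosen by their values.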
